A study of Mus musculus with 61 samples.

Results

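The 34 genes described here carry fatty acids into the mouse muscle fibre, store them and burn them, and they were followed across 61 skeletal muscle RNA-seq libraries. The members were a named list of 34 of the 55011 genes in the count table. The list was not set by a threshold on these data, but earlier results of these data were known when it was chosen. All 34 passed the filter on low counts in every comparison. They fall into 5 steps: uptake (4 genes), lipid droplet (5), activation and carnitine transfer (9), beta oxidation (12) and electron transfer (4).

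The series asked what exercise does to muscle transcripts and what changes when regulatory T cells are depleted or interferon gamma is neutralised. Wild-type C57BL/6J mice were sedentary or sampled 1, 2 or 7 days after a single bout, with quadriceps and tibialis anterior taken from the same animals (n = 3 in each of 8 groups). In the acute experiment, quadriceps came from Foxp3DTR+ mice, in which Foxp3-expressing cells carry the diphtheria toxin receptor, and from Foxp3DTR- mice, which lack it. Animals of both genotypes received diphtheria toxin. The groups were sedentary (2 DTR+ and 3 DTR-), day 1 after a bout (3 and 3) and day 7 (2 and 2). In the training experiment, toxin-treated DTR+ and DTR- mice were sedentary or trained for 2 weeks (n = 3 in each of 4 groups). Trained, toxin-treated DTR+ mice also received control IgG or an antibody to interferon gamma (n = 3 each). Sedentary C57BL/6JN mice aged 24 months received IgG or that antibody (n = 2 each), and the muscle sampled is not named for them. Ages of the other mice were not given.

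Long-chain fatty acids reach the fibre from lipoproteins cut by lipoprotein lipase, cross the membrane with the help of Cd36 and fatty acid transport proteins, and are ferried by the binding protein Fabp3. They are then stored as triglyceride in droplets coated by perilipins, or joined to coenzyme A and carried into mitochondria as carnitine esters. There the beta-oxidation spiral shortens them, and the electron transfer flavoprotein passes their electrons to the respiratory chain. Oxidative fibres rely on this route more than glycolytic fibres do.

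Libraries held 3359680 to 14445300 counts, and each was built from 2 ng of RNA. The members together took 0.342% to 0.954% of a library's counts. Skeletal muscle actin (Acta1) stood between 15759 and 107055 CPM (counts scaled to a library total of 1e6) in every library, so the muscle label held. Foxp3 had between 0 and 9 counts per library and was at 0 in 41 of 61, so it could not check the depletion. Adipoq, the defining adipocyte marker, was detected in every library (4.01 to 68.9 CPM), and these are whole-muscle samples. A lower level of a transcript and fewer cells that carry it therefore cannot be told apart here. Sedentary and day 7 libraries of the acute experiment stood apart from wild type. Set against the mean library, their levels were lower for longer transcripts (trend -0.399 to -0.152 log2 per doubling of exon length, against 0.0571 to 0.122 in wild type), and mitochondrially encoded genes took 7.89% to 23.5% of counts against 4.13% to 6.25%. Sedentary DTR+ replicates 2 and 3 of the training experiment (trends -0.236 and 0.247) and all 4 aged libraries (-0.502 to 0.689) also diverged.

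Promoters of 28 of the 34 members were found in the RefSeq table (GRCm38.p6, 250 bases before to 50 after the start). A promoter is shown first because Hadha and Hadhb, the alpha and beta subunits of the mitochondrial trifunctional protein, are transcribed away from each other from neighbouring starts on chromosome 5, yet their transcripts separated in the data below. Hadha lies at chr5:30118304-30155162 on the minus strand and Hadhb at chr5:30155248-30184593 on the plus strand (GRCm38, GENCODE vM21). The 85 bases between the gene models, at chr5:30155163-30155247, read on the plus strand, with the GC box GGGCGG in capitals:
Hadha to Hadhb: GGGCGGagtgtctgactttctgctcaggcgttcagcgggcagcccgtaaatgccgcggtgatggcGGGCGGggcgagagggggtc

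The stretch holds 2 GC boxes. Across members, GGGCGG on either strand was found in 20 of 28 promoters (71.4%), against 38.2% of 27025 promoters of all genes. The second motif searched was the DR1 element AGGTCANAGGTCA, the repeat bound by PPAR with RXR, on both strands with up to 2 mismatches. It was found in 6 of 28 members (21.4%) and in 4.4% of all promoters. With 1 mismatch allowed it was found in 0 of 28 members and in 0.6% of all promoters. The motif TCAAGGTCA was also searched, without mismatches. It was found in 1 of 28 members (3.6%), Acsl6, and in 0.5% of all promoters. DR1 matches of Cd36 and Slc25a20, both called higher in trained DTR+ muscle below, and of Ucp3 are shown with matching letters in capitals:
Cd36, chr5:17835947-17835959, plus strand: AaGTCAgAGGcCA
Slc25a20, chr9:108662142-108662154, plus strand: AGGTgAaAGGTCg
Ucp3, chr7:100472940-100472952, plus strand: AGGTttcAGGTCA

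A match describes letters, not a bound site. The other 3 were in Plin2, Echs1 and Etfa, which, like Ucp3, were not called in trained DTR+ muscle. Among the remaining members called there, Pnpla2, Hadha and Etfdh had no match, and Decr1 had no promoter in the RefSeq table.

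At rest, the transcript pool was led by the fatty acid carrier and by mitochondrial enzymes. On a scale of CPM per kilobase of exon, Fabp3 stood at 450 ± 39.5 in sedentary wild-type quadriceps (SD, n = 3). Acaa2, a mitochondrial thiolase of beta oxidation, followed at 156 ± 10.2. Neighbours in the order then overlapped: the long-chain dehydrogenase Acadl at 142 ± 9.22, carnitine acetyltransferase Crat at 140 ± 4.09, Etfa at 139 ± 5.47 and the thioesterase Acot13 at 136 ± 8.04. Pnpla2, the adipose triglyceride lipase, was the highest droplet gene at 92.6 ± 3.09 CPM per kilobase. At the lower end were Cpt1b, the muscle form of the carnitine palmitoyltransferase that gates entry to mitochondria (4.36 ± 0.574), hormone-sensitive lipase Lipe (4.31 ± 1.41) and the acyl-CoA synthetase Acsl6 (2.27 ± 0.648). Of the exon length of Cpt1b, 81.4% is shared with the annotated gene Gm44502 on the same strand, which had 1 count over all libraries. For Etfb 53.0% is shared with Gm45233 on the same strand, a symbol with no row in the count table. For Acadvl 42.9% is shared with Dvl2 on the opposite strand. How reads over both genes of a pair were counted is not given in the sources used here, and their effect on these levels was not tested.

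**Figure D1:**
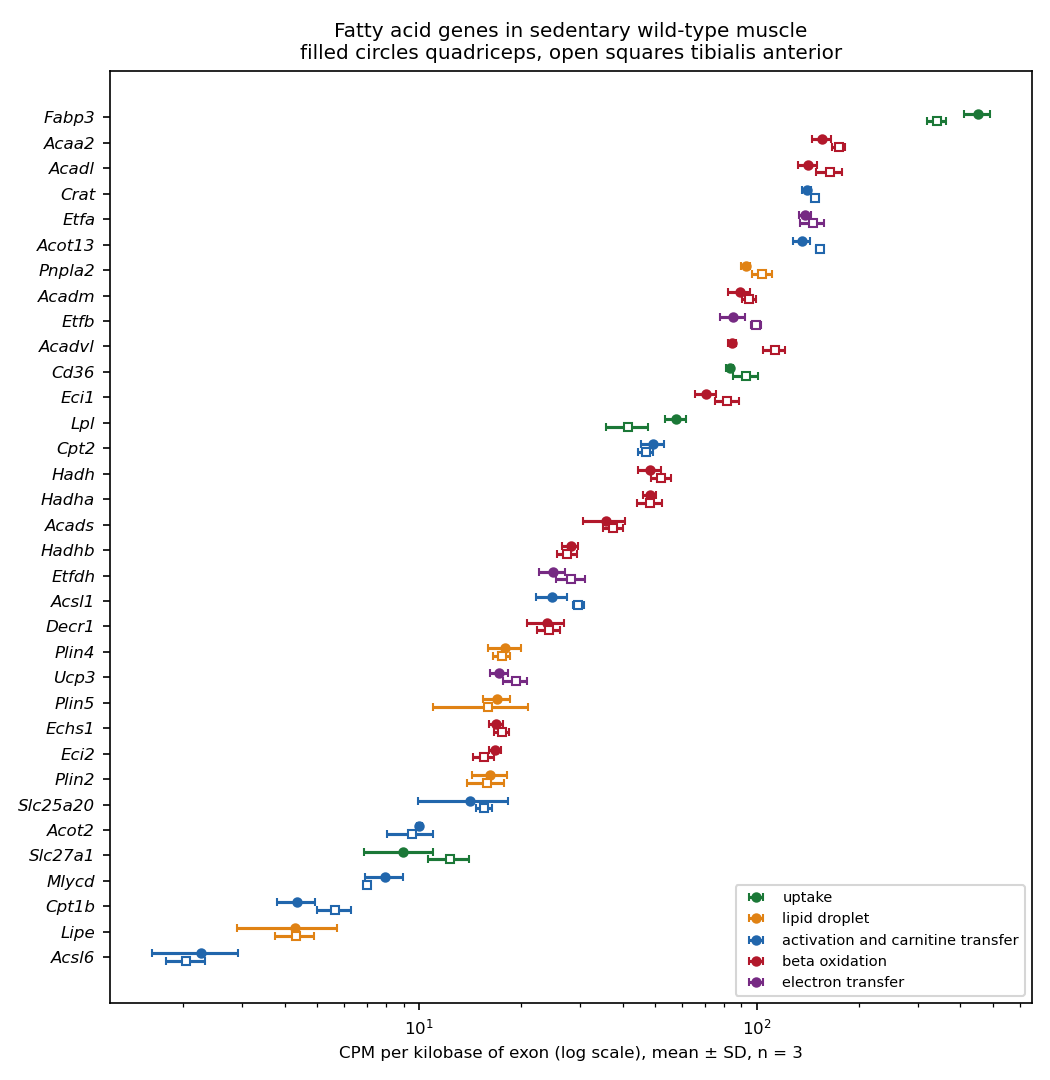
Level of the 34 genes in sedentary wild-type muscle, as CPM per kilobase of exon on a log axis (mean ± SD, n = 3), for quadriceps (filled circles) and tibialis anterior (open squares), coloured by step. Fabp3 is highest in both muscles, and most pairs of symbols overlap.

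Quadriceps and tibialis anterior differed in 2 members at rest, Fabp3 and Acadvl, in opposite directions. Fabp3 CPM was 350, 408 and 354 in quadriceps and 300, 264 and 278 in tibialis anterior, with no overlap (log2 0.40 ± 0.09 (SE), adjusted p = 0.0151). Acadvl, the very-long-chain dehydrogenase that starts beta oxidation, was at 223, 223 and 234 CPM in quadriceps and 329, 293 and 286 CPM in tibialis anterior (log2 -0.42 ± 0.09, adjusted p = 0.0153). Of all genes tested 1.3% were called in this comparison (180 of 13819, 0.586% higher and 0.716% lower). Lpl was at 0.46 ± 0.12 with adjusted p = 0.057. Slow fibre markers were higher in quadriceps in 7 of 7 (summed level 678 to 1246 against 179 to 184 CPM) and adipocyte markers were called higher in 2 of 7; their part in the 2 calls was not tested. Leaving out quadriceps replicate 06 removed both calls, and 1 was left without quadriceps replicate 05, tibialis replicate 06 or tibialis replicate 07. The Acadvl call was also lost without tibialis replicate 05 (-0.35, adjusted p = 0.138) and once trends on length and GC were taken out of each library (-0.39, adjusted p = 0.0618).

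After a single bout, the fatty acid genes of wild-type muscle moved little. The one call was Lpl, the lipase that frees fatty acids from circulating lipoproteins, in quadriceps at day 1. Its CPM was 645, 609 and 559 in sedentary mice and 432, 388 and 429 at day 1. The groups did not overlap, and Lpl fell by 0.52 on the log2 scale (SE 0.09, adjusted p = 0.00779). That is 1 of 34 members, against 0.582% of 13062 genes called. Lpl remained at 443, 474 and 450 CPM at day 2 and 450, 397 and 508 at day 7, all below the sedentary libraries, but neither day passed the test (log2 -0.39 ± 0.09 and -0.39 ± 0.09, adjusted p = 0.0959 and 0.0986). Without sedentary replicate 05 the day 1 value was -0.47 with adjusted p = 0.0689. Endothelial markers, 7 of 7 lower with 0 called, summed to 200 to 241 CPM at day 1 and 239 to 285 CPM at rest; their part in the Lpl result was not tested.

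No member was called at day 2 (0.299% of genes called) or day 7 (0.214%) in quadriceps. Cd36 came closest at day 2, with 240, 226 and 209 CPM against 298, 306 and 290 in sedentary mice (log2 -0.38 ± 0.09, adjusted p = 0.0765). Ucp3, a mitochondrial uncoupling protein of oxidative muscle, had 70.4, 91.2 and 83.2 CPM at day 7 against 57.9, 51.6 and 53.1, a separation that did not pass the test (log2 0.61 ± 0.21, adjusted p = 0.371). An unadjusted p under 0.05 was found for 7 members at day 2 and 5 at day 7, and DESeq2 called 2 and 1. Such counts, here and below, mostly stand without the share of all genes at the same threshold. Where that share is missing they are not read as a result about the members.

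In tibialis anterior, 0 members were called at day 1 (0.0552% of 12692 genes called), day 2 (0.063%) or day 7 (0.0158%), with 4, 3 and 4 members at an unadjusted p under 0.05. DESeq2 called 1, 0 and 0. Plin5, the perilipin that tethers droplets to mitochondria, had the smallest p at day 1. Its CPM was 60.6, 65.0 and 60.3 at day 1 and 41.2, 21.6 and 37.4 at rest, with no overlap (log2 0.92 ± 0.20, adjusted p = 0.108). Pnpla2 was at 355, 427 and 358 CPM against 334, 291 and 316 (log2 0.32 ± 0.10, adjusted p = 0.317). The response differed between the muscles in 0 members at day 1, 2 or 7 (0.0434%, 0.00724% and 0.0796% of genes called). The unadjusted test picked 4, 3 and 0 members, and DESeq2 called 0 at each day.

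**Figure D2:**
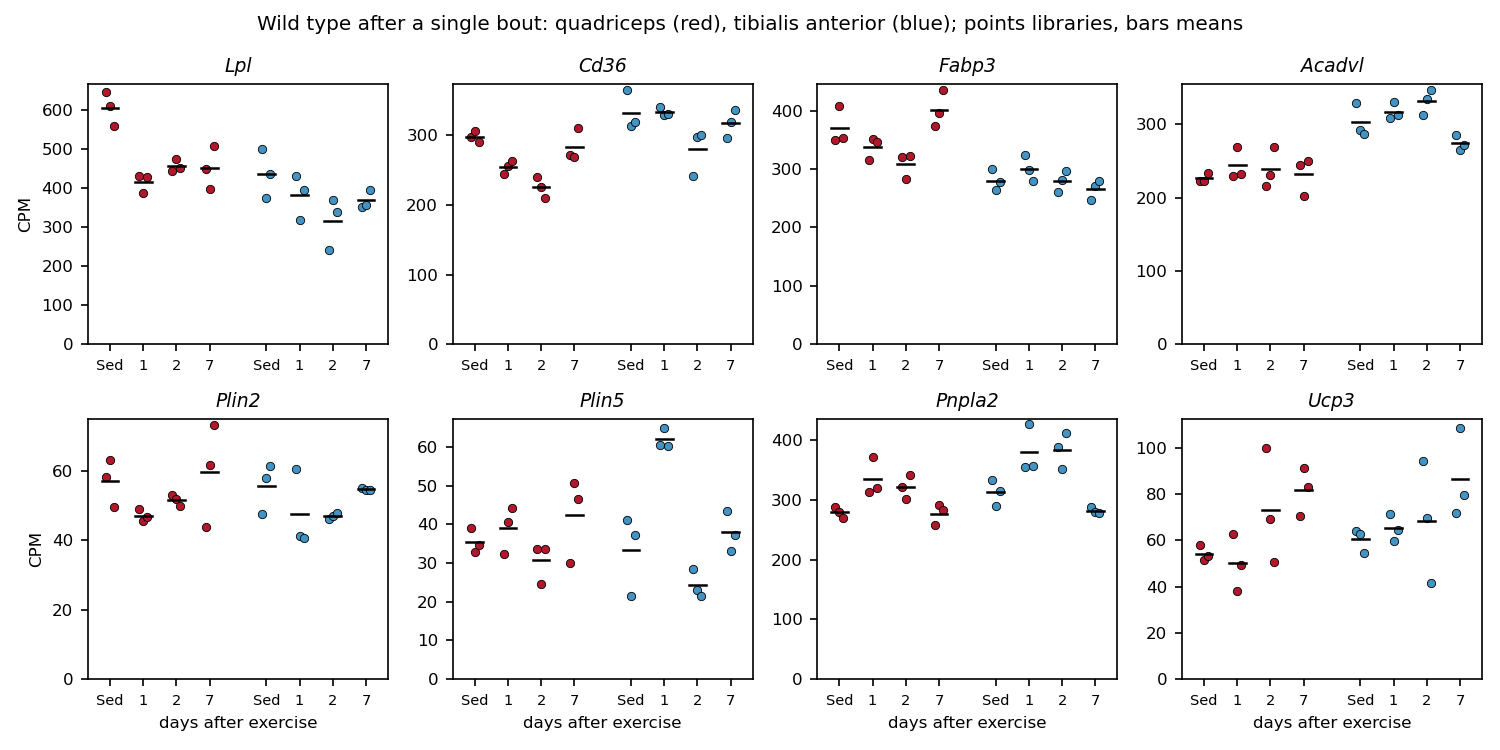
CPM of 8 members in wild-type quadriceps (red) and tibialis anterior (blue), sedentary and at days 1, 2 and 7 after a single bout; points are libraries and bars are means of 3. Lpl in quadriceps lies between 559 and 645 CPM at rest and between 388 and 432 CPM at day 1, and Plin5 in tibialis anterior lies above 60 CPM at day 1 only.

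Many of these genes separated the genotypes of the acute experiment. In sedentary toxin-treated mice, 20 of 34 members differed between DTR+ and DTR-, 6 higher and 14 lower in DTR+ (26.6% of 14245 genes called, 12.1% higher and 14.5% lower). At day 7, 23 differed, 8 higher and 15 lower (25.3% called, 11.3% higher and 14% lower). Both times shared 5 of the higher and 14 of the lower members. The 2 contrasts use separate libraries, and the labels do not say whether the animals were separate. The share of all genes called at both times was not counted, so the shared counts are not read as a result about the members. The sides followed the steps only in part. Droplet genes were called lower in 4 of 5 members at both times, with none higher, and uptake genes in 2 and then 3 of 4. Electron transfer genes were higher in 2 and lower in 1 of 4 at both times. Beta-oxidation genes were split, 2 higher and 4 lower of 12 at rest and 4 and 4 at day 7, as were activation and carnitine genes, 2 higher and 3 lower of 9 at both times.

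Library properties separated the same groups. The 4 sedentary and day 7 DTR+ libraries had 20% to 23.5% of counts on mitochondrially encoded genes, length trends of -0.399 to -0.370 and 14701 to 15306 genes detected. The 5 DTR- libraries had 7.89% to 12%, -0.324 to -0.152 and 16508 to 18494, so the genotypes did not overlap in any of the 3. The part of these properties in the genotype results was not tested, apart from the alternatives that follow. Counts of calls under these and later alternatives stand without the share of all genes called, so they are not read against other genes. Fitted folds in the sedentary contrast lay 0.31 above the ratio of CPM (log2, median over members). With library totals in place of TMM factors the median of all genes moved to -0.36 and the sedentary split became 4 higher and 16 lower. At day 7 the median moved to -0.39 and the split to 5 and 16. With the trend on length and GC content removed from each library, the calls were 6 higher and 7 lower at rest and 7 and 7 at day 7. At each time 13 members were called with and without the removal. Leaving out sedentary DTR+ replicate 2 also left 13 calls; a group of 2 then has 1 library, which is assumed to vary like the other groups.

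Cpt1b showed the largest difference among the members. Its CPM was 0.371 and 1.62 in sedentary DTR+ libraries, from 3 and 13 counts, and 11.7, 13.4 and 15.7 in DTR- libraries (log2 -3.45 ± 0.44, adjusted p = 1.26e-05). At day 7 it was 1.56 and 1.56 against 8.78 and 12.9 CPM (log2 -2.53 ± 0.44, adjusted p = 0.000239). Cpt2, the inner-membrane partner of Cpt1b, did not pass the test at either time (log2 -0.32 ± 0.16, adjusted p = 0.16 at rest). Of the other carnitine genes, Crat, which trades acetyl groups between coenzyme A and carnitine, stood at 141 and 181 against 352, 436 and 468 CPM (log2 -1.07 ± 0.14). The Crat call was lost with the length and GC trend removed (-0.30, adjusted p = 0.109). Acot13 was higher, at 215 and 221 against 130, 134 and 122 CPM (log2 1.07 ± 0.14), and so was malonyl-CoA decarboxylase Mlycd, which removes the inhibitor of Cpt1b (log2 0.72 ± 0.24, adjusted p = 0.0332). The Mlycd call was lost with library totals (0.41, adjusted p = 0.227), without the filter, in a fit of the sedentary groups alone, and without DTR+ replicate 2 (0.45, adjusted p = 0.34) or DTR- replicate 3 (0.52, adjusted p = 0.162).

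In the droplet step, Pnpla2 was at 27.7 and 37.0 CPM in sedentary DTR+ and at 93.5, 91.1 and 95.6 CPM in DTR- controls (log2 -1.22 ± 0.25, adjusted p = 0.000898). Lipe was at 0.741 and 4.86 against 6.21, 10.1 and 15.2 CPM (log2 -1.59 ± 0.50, adjusted p = 0.024). Every DTR+ library was below every DTR- library for both lipases. The Lipe value ran from -3.5 to -0.83 as single libraries were left out, and the call was lost without DTR+ replicate 2 (adjusted p = 0.251) or DTR- replicate 3 (adjusted p = 0.0925). The droplet coats Plin4 and Plin5 were lower by edgeR as well (log2 -1.06 ± 0.23 and -1.04 ± 0.35). Plin2, the coat found in most tissues, stood at -0.08 ± 0.20. The Plin5 call was lost under 3 of 5 leave-outs, with values of -1.01 to -0.62 and adjusted p of 0.0704 to 0.309. With the length and GC trend removed, none of the 4 droplet calls passed at rest, and at day 7 only Lipe did: Pnpla2 was at -0.62 (adjusted p = 0.0855), Plin5 at -0.62 (adjusted p = 0.273) and Plin4 at 0.08 (adjusted p = 0.868). At day 7 Plin4 and Plin5 were each also lost under 3 of 4 leave-outs and in a fit of the day 7 groups alone. Adipocyte marker sums were 416 to 710 CPM in DTR+ and 446 to 732 CPM in DTR- sedentary libraries, so they overlapped; Ucp1, the marker of brown fat, was at 0 in 1 of 2 and 1 of 3.

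Of the uptake genes, Slc27a1 and Cd36 were lower at rest. The transporter Slc27a1 was at 15.4 and 21.4 CPM in sedentary DTR+ and 53.2, 48.3 and 46.7 CPM in DTR- controls (log2 -1.12 ± 0.29, adjusted p = 0.00641). The Slc27a1 call was lost with the length and GC trend removed (-0.29, adjusted p = 0.512) and without DTR+ replicate 2 (-0.94, adjusted p = 0.0812). Cd36 was at 173 and 157 against 236, 306 and 326 CPM (log2 -0.50 ± 0.16, adjusted p = 0.024), and it was called after the removal of the length and GC trend (-0.53). It was called under only 1 of 5 leave-outs, the other values lying at -0.62 to -0.44 with adjusted p of 0.0522 to 0.166. Fabp3 was at 467 and 465 against 584, 479 and 515 CPM, with log2 0.13 ± 0.15. Endothelial markers, which share the vessel with Cd36 and Lpl, summed to 145 to 151 CPM in DTR+ and 170 to 204 CPM in DTR- libraries; their part was not tested.

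The chain-length dehydrogenases of beta oxidation parted. Acads, which acts on short chains, was at 6.92 and 7.36 CPM in sedentary DTR+ and 27.6, 40.4 and 42.4 CPM in DTR- controls (log2 -2.05 ± 0.24, adjusted p = 5.31e-06). Acadvl, for very long chains, was at 123 and 119 against 277, 308 and 299 CPM (log2 -0.98 ± 0.15). Acadm, for medium chains, was higher, at 540 and 506 against 440, 429 and 404 CPM (log2 0.61 ± 0.14, adjusted p = 0.00228). Acadl, for long chains, stood at 0.20 ± 0.15 and was not called. Acads, Acadvl and Acadm were also called after the removal of the length and GC trend (-1.47, -0.51 and 0.77). Acadm kept its side but not its call under library totals (0.30, adjusted p = 0.0839) and without DTR+ replicate 2 (0.52, adjusted p = 0.0538). The Acadvl call at day 7 was lost with the trend removed (-0.32, adjusted p = 0.213).

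Both subunits of the electron transfer flavoprotein were higher in DTR+ muscle. Etfa was at 746 and 647 CPM against 451, 431 and 384 (log2 1.03 ± 0.16, adjusted p = 8.24e-05) and Etfb at 180 and 183 against 140, 124 and 134 (log2 0.76 ± 0.15, adjusted p = 0.000751). Etfdh, the dehydrogenase that takes electrons from them, stood at 0.10 ± 0.15. Ucp3 was lower, at 15.4 and 17.0 against 51.0, 52.7 and 52.5 CPM (log2 -1.38 ± 0.19). Etfa, Etfb and Ucp3 were called with the trend removed as well (0.69, 0.96 and -0.84).

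**Figure D3:**
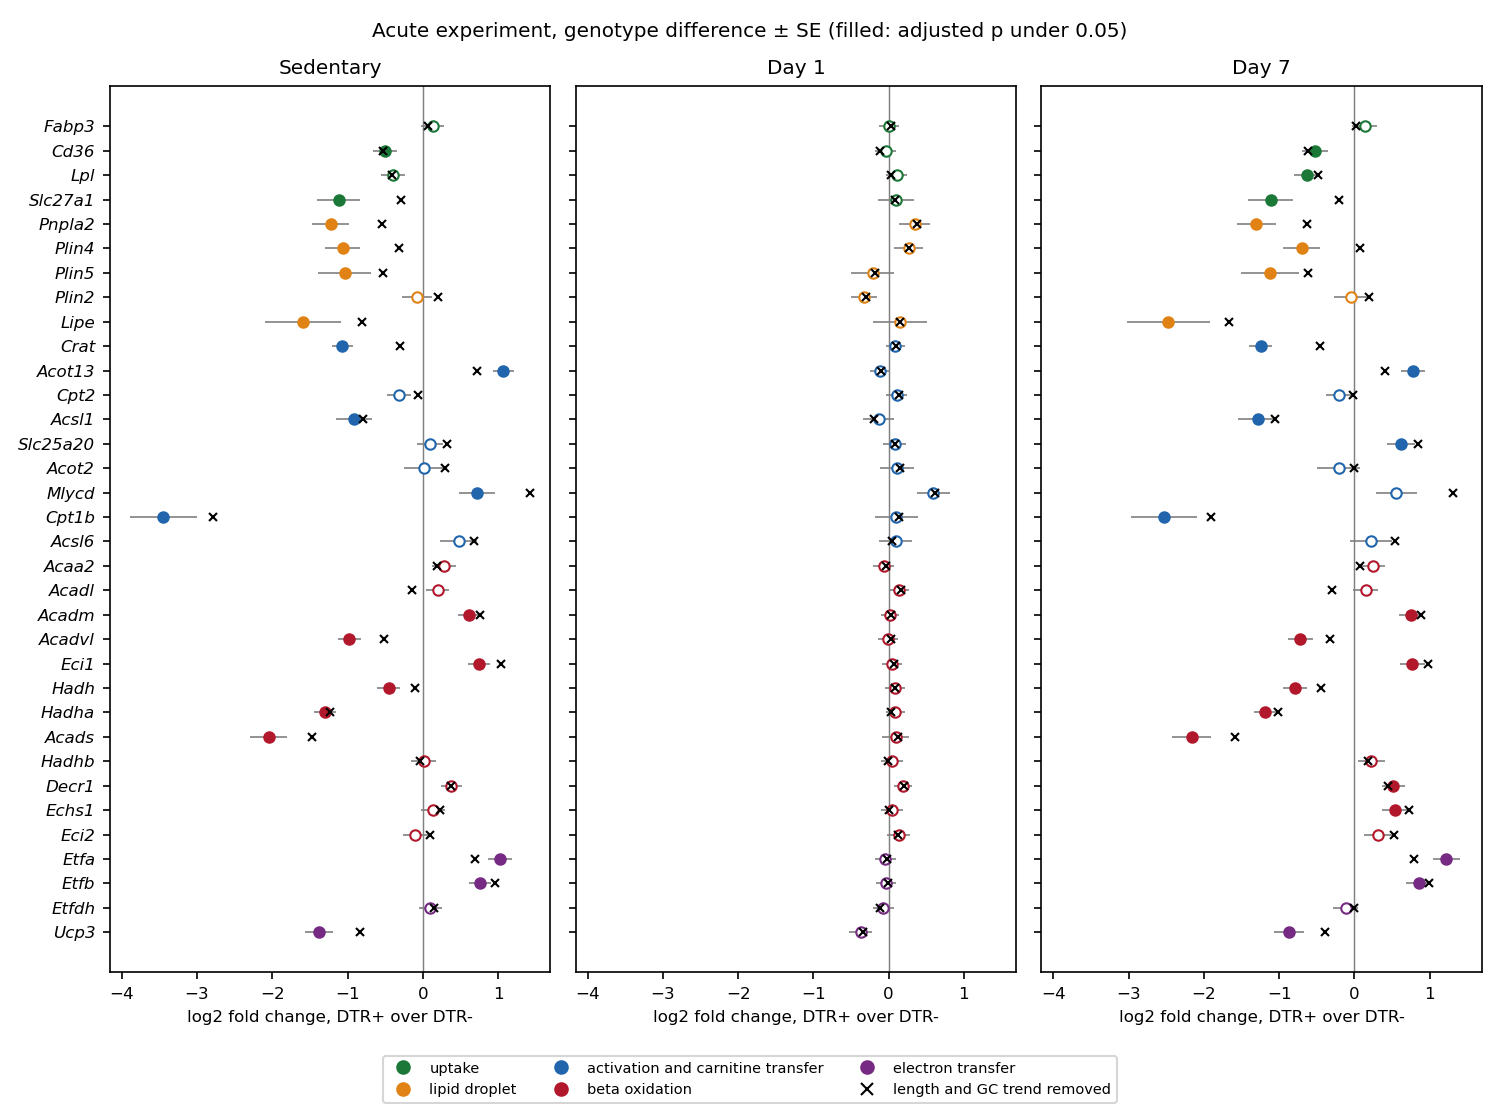
Log2 fold change of DTR+ over DTR- quadriceps (± SE) for the 34 genes in sedentary mice and at days 1 and 7; filled circles have an adjusted p under 0.05 and crosses are the values with the length and GC trend removed. Cpt1b reaches -3.45 at rest and -2.53 at day 7, and no circle is filled at day 1.

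Hadha and Hadhb, the pair with the shared upstream stretch shown above, separated in these libraries. Sedentary Hadha was at 118 and 119 CPM in DTR+ and 314, 366 and 408 CPM in DTR- controls (log2 -1.30 ± 0.15, adjusted p = 3.67e-06). Hadhb was at 207 and 215 against 272, 264 and 241 CPM (log2 0.01 ± 0.16). The ratio of Hadha to Hadhb counts within a library needs no scaling. It ran from 0.485 to 0.712 in the 4 sedentary and day 7 DTR+ libraries and from 1.16 to 1.85 in the 5 DTR- ones. It ran from 2.06 to 2.27 in the 6 day 1 libraries and from 2.14 to 2.68 in 24 wild-type libraries. Genotypes did not overlap at rest or day 7, but an exact two-sided permutation test of the ratio gave p = 0.2 at rest and p = 0.333 at day 7, the smallest these sample numbers allow, and p = 0.5 at day 1 (smallest possible 0.1). Hadha kept its call with the length and GC trend removed (-1.23). Libraries with other length trends show how the ratio lay beside it. The aged library with a trend of 0.689 had a ratio of 5.50. Sedentary DTR+ replicates 2 and 3 of the training experiment, at -0.236 and 0.247, had ratios of 1.41 and 2.32. The aged libraries at -0.502 and -0.422 had ratios of 1.24 and 1.03. They lay below the 4 acute sedentary and day 7 DTR+ libraries in trend and above them in ratio. The separation was not particular to this pair. The ratio of Etfa to Etfb ran from 3.53 to 4.25 in those 4 acute DTR+ libraries and from 2.75 to 3.47 in the 5 DTR- ones. In wild type it ran from 1.83 to 2.90. Cpt1b over Cpt2 ran from 0.00398 to 0.0190, from 0.0786 to 0.101 and, in wild type, from 0.108 to 0.229. The part of the trend in these ratios was not tested.

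**Figure D4:**
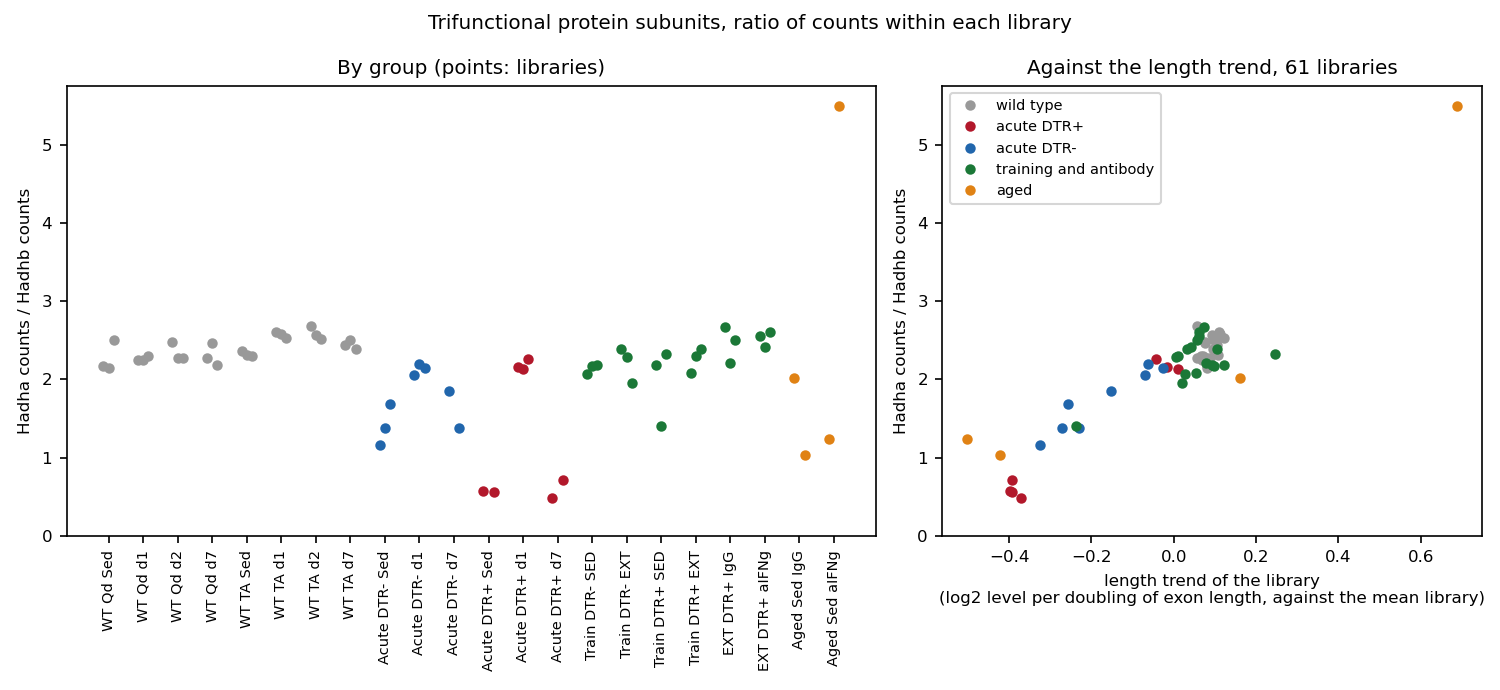
Ratio of Hadha to Hadhb counts in each of 61 libraries, by group (left) and against the library's length trend in log2 level per doubling of exon length (right). The 4 sedentary and day 7 DTR+ libraries lie at 0.485 to 0.712, below all others, and 1 aged library lies at 5.50.

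At day 1 after the bout no genotype difference was called: 0 of 34 members and 0% of genes passed edgeR's test, with 2 members and 280 genes at an unadjusted p under 0.05. The 2 were Mlycd (log2 0.59 ± 0.22) and Ucp3 (-0.37 ± 0.15), both with an adjusted p of 1, and DESeq2 called 0 members. The Cpt1b level was 16.4 ± 3.82 CPM for DTR+ against 15.4 ± 1.35 CPM for DTR- libraries (SD, n = 3 each), and they overlapped. The day 1 libraries also had a length trend (-0.0693 to 0.0103) and a mitochondrial share (5.44% to 6.56%) nearer to wild type.

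Day 1 was then set against the sedentary groups within each genotype. In DTR- mice 17 members changed, 5 higher and 12 lower (16.4% of genes called, 8.16% higher and 8.24% lower). In DTR+ mice 27 changed, 14 higher and 13 lower (42.4% called, 24.3% higher and 18.1% lower). With library totals these splits were 7 higher and 3 lower, and 19 and 6. The median of all genes then moved to 0.34 and 0.81. After removal of the length and GC trend the splits were 2 higher and 11 lower, and 8 and 15. The DTR- count fell to 7 without sedentary replicate 1, day 1 replicate 2 or day 1 replicate 3, and to 11 without sedentary replicate 2. Both contrasts rest on the sedentary libraries described above.

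Among the genes called higher at day 1 were both lipases. Pnpla2 went from 93.5, 91.1 and 95.6 CPM at rest to 206, 298 and 354 CPM at day 1 in DTR- mice (log2 1.35 ± 0.21, adjusted p = 0.00026). In DTR+ mice it went from 27.7 and 37.0 to 408, 375 and 283 CPM (log2 2.92 ± 0.26, adjusted p = 2.77e-08). Sedentary Pnpla2 was at 288, 281 and 270 CPM in wild-type quadriceps. It was at 239, 241 and 264 CPM in sedentary DTR- mice of the training experiment. Those libraries all lay above the acute sedentary ones, and the difference between the experiments was not tested. Lipe rose by 1.16 ± 0.38 and 2.90 ± 0.51, and Acsl1, the main acyl-CoA synthetase of muscle, by 0.75 ± 0.21 and 1.53 ± 0.25. In DTR- mice the Lipe call was lost under 5 of 6 leave-outs and with the length and GC trend removed (0.85, adjusted p = 0.117). The Acsl1 call there was lost under 3 of 6 and with the trend removed (0.33, adjusted p = 0.362). Cpt1b rose in DTR+ mice (3.49 ± 0.44) and stood at -0.06 ± 0.29 in DTR- mice. Acads (2.56 ± 0.24), Slc27a1 (1.60 ± 0.29), Crat (1.55 ± 0.15) and Hadha (1.48 ± 0.15) also rose in DTR+ mice, of which Slc27a1 was not called with the trend removed (0.39, adjusted p = 0.308).

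Among the genes that fell at day 1 were Etfa (-0.64 ± 0.15 in DTR- and -1.71 ± 0.16 in DTR+), Eci1, an isomerase for unsaturated chains (-0.59 ± 0.13 and -1.30 ± 0.14), and Decr1, the reductase for those chains (-0.63 ± 0.13 and -0.82 ± 0.14). Mlycd fell by 0.91 in DTR- and 1.04 in DTR+ mice. Hadhb and Etfdh were called lower in DTR+ mice (-0.48 ± 0.16 and -0.41 ± 0.15), although their mean CPM was higher at day 1. With library totals they stood at 0.06 and 0.13, so their side depends on the scaling. Under library totals Etfa (-0.38, adjusted p = 0.0524) and Eci1 (-0.34, adjusted p = 0.0602) in DTR- mice and Mlycd (-0.50, adjusted p = 0.0989) and Decr1 (-0.28, adjusted p = 0.0959) in DTR+ mice also lost their calls. In wild-type quadriceps only Lpl was called at day 1, and Lpl there fell, while it was higher in DTR+ mice at day 1 (0.86 ± 0.16, and 0.36 with adjusted p = 0.0809 with the trend removed); the difference between the experiments was not tested.

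The genotypes differed in this day 1 response in 14 members, 9 with a higher and 5 with a lower change in DTR+ (15.3% of genes called, 8.8% higher and 6.54% lower). The values were 3.55 ± 0.53 for Cpt1b, 2.14 ± 0.30 for Acads, 1.57 ± 0.32 for Pnpla2 and 1.39 ± 0.19 for Hadha, and -1.18 ± 0.20 for Acot13 and -1.07 ± 0.22 for Etfa. With library totals the split was 15 and 2. With the length and GC trend removed 8 were called, 3 and 5. Against rest, day 7 gave 0 calls among members in DTR- mice (0.00702% of genes) and in DTR+ mice (1.01%), with 8 and 3 members at an unadjusted p under 0.05 and 1 and 0 by DESeq2. The genotype difference in the day 7 response also gave 0 (0.0772%), with 0 members at an unadjusted p under 0.05 and 0 by DESeq2.

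Of 56 further genes of fatty acid metabolism, also listed with earlier results of these data known, 55 were tested. In sedentary mice 7 (12.7%) were higher and 17 (30.9%) lower in DTR+, beside 12.1% and 14.5% of all genes. They included the mitochondrial coenzyme A carrier Slc25a42 (-2.30 ± 0.44), the triglyceride-forming Dgat2 (-1.95 ± 0.32) and the regulator Pparg (-1.65 ± 0.54). The peroxisomal enzyme Ehhadh was also called lower, from 0 and 3 counts in DTR+ and 11, 15 and 16 in DTR- libraries, too few for a fold. At day 7, 6 (10.9%) were higher and 19 (34.5%) lower, beside 11.3% and 14%. At day 1 against rest, 9 (16.4%) rose and 6 (10.9%) fell in DTR- mice, beside 8.16% and 8.24%. In DTR+ mice 24 (43.6%) rose and 10 (18.2%) fell, beside 24.3% and 18.1%, with Slc25a42 at 4.27 from 13 and 6 counts at rest. For the genotype difference in the day 1 response, 6 (10.9%) had a higher and 3 (5.5%) a lower change in DTR+, beside 8.8% and 6.54%.

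After 2 weeks of training, 6 of 34 members were called higher and 0 lower in trained against sedentary DTR+ mice, a count that depended on single libraries (2.21% of 12579 genes called, 0.978% higher and 1.23% lower). In all, 32 of 34 members had a positive log2 fold change, with a median of 0.45 against -0.04 for all genes tested. The 6 came from all 5 steps. Members took 0.776% to 0.954% of counts in trained and 0.525% to 0.654% in sedentary DTR+ libraries.

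For uptake, Cd36 was at 357, 260 and 274 CPM in sedentary and 511, 635 and 551 CPM in trained DTR+ mice (log2 0.89 ± 0.17, adjusted p = 0.00647). For the droplet, Pnpla2 went from 303, 150 and 203 CPM to 314, 460 and 423 CPM (log2 0.84 ± 0.20, adjusted p = 0.0274). Sedentary replicate 1 was close to the lowest trained library for Pnpla2, whereas Cd36 had a wide gap. Slc25a20, the carrier of carnitine esters across the inner membrane, went from 65.7, 77.5 and 55.4 CPM to 105, 140 and 120 CPM (log2 0.81 ± 0.20, adjusted p = 0.0417).

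In beta oxidation, Decr1 went from 84.5, 75.7 and 92.3 CPM to 151, 172 and 162 CPM (log2 0.91 ± 0.16, adjusted p = 0.00457). Hadha went from 426, 285 and 326 CPM to 486, 639 and 603 CPM (log2 0.70 ± 0.17, adjusted p = 0.031). All 12 beta-oxidation genes had a positive value, of which only these 2 passed. For electron transfer, Etfdh went from 177, 154 and 137 CPM to 252, 330 and 329 CPM (log2 0.91 ± 0.19, adjusted p = 0.0141). Trained libraries lay above every sedentary library for all 6 genes. Of the 55 further genes, Dgat2 (0.96 ± 0.20, adjusted p = 0.0117) and Oxct1, the enzyme that opens ketone use (0.69 ± 0.16, adjusted p = 0.0284), were higher and 0 lower.

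The count of 6 was 18 without sedentary DTR+ replicate 2, 3 without sedentary replicate 3, 0 without trained replicate 2 and 3 without trained replicate 3. The Slc25a20 call was lost under 5 of 6 leave-outs (edgeR adjusted p up to 0.313). Pnpla2 and Hadha lost theirs under 3 of 6 each (up to 0.24 and 0.274). Cd36, Decr1 and Etfdh lost theirs under 1 of 6 each. Without both sedentary libraries of divergent length trend it was 1, Decr1; this left sedentary DTR+ with 1 library, assumed to vary like the other groups. With only the DTR+ groups in the fit it was 0. With the length and GC trend removed it was 7, the 6 and Acaa2. Endothelial markers summed to 357 to 454 CPM in trained and 235 to 325 CPM in sedentary DTR+ libraries (1 of 7 called higher), and fast glycolytic fibre markers to 101750 to 116198 against 119102 to 144679 CPM (7 of 7 lower, 1 called). Adipocyte marker sums overlapped (235 to 346 against 237 to 469 CPM). The part of these markers was not tested.

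**Figure D5:**
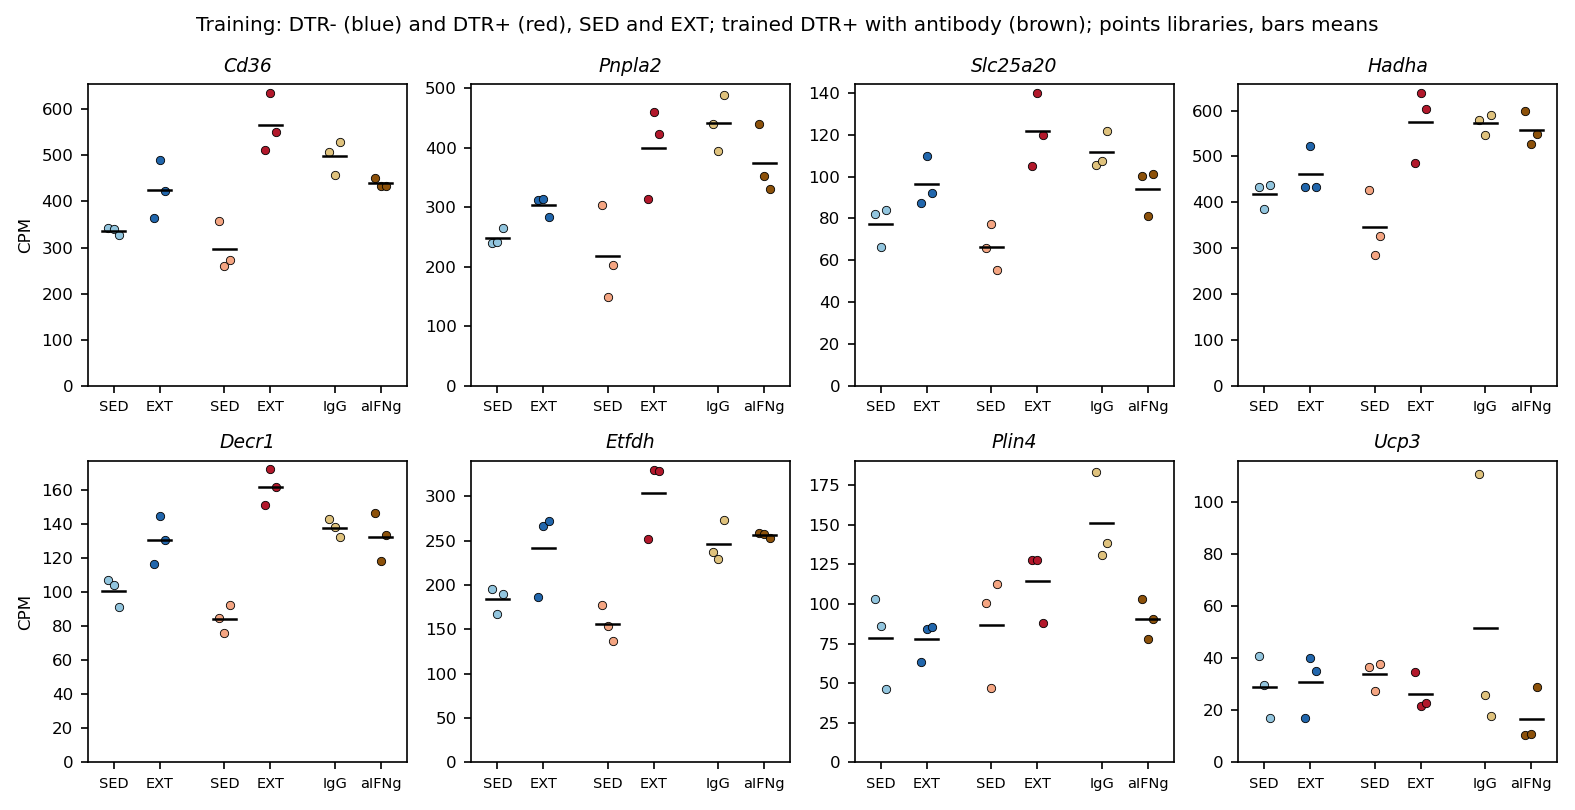
CPM of 8 members in DTR- (blue) and DTR+ (red) quadriceps, sedentary (SED) and trained (EXT), and in trained DTR+ mice given IgG or anti-interferon gamma (brown); points are libraries and bars are means of 3. Trained DTR+ libraries lie above sedentary DTR+ libraries for Cd36, Slc25a20, Decr1, Etfdh, Hadha and Pnpla2, and the antibody libraries lie below the IgG libraries for Plin4.

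In DTR- mice, training gave 0 calls among members (0.103% of genes called), with 3 at an unadjusted p under 0.05. A positive value was seen in 27 of 34 members (median 0.20 against 0.01 for all genes). Cd36 was at 342, 341 and 326 CPM before and 364, 491 and 422 CPM after training, and Decr1 at 107, 104 and 91.0 and then 116, 144 and 131 CPM. Neither passed the test, though the libraries did not overlap. Acads had the smallest p (log2 0.44 ± 0.17, adjusted p = 0.888). The genotype difference in the training response gave 0 members (0.27% of genes called), with 6 at an unadjusted p under 0.05. Among the 55 further genes 1 (1.8%) was called by edgeR, Acsl3, with a lower change in DTR+ (log2 -2.76 ± 0.51, adjusted p = 0.025). Hadha was at 0.62 ± 0.24 and Decr1 at 0.59 ± 0.23, with adjusted p = 0.506 and 0.513. DESeq2 also called 0 members in both. A call in DTR+ mice and none in DTR- mice does not show that the genotypes responded differently.

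Between genotypes, sedentary mice of the training experiment showed 0 called members (0.0477% of genes called, 1 member at an unadjusted p under 0.05, Mlycd). Trained mice showed 0 as well (0.89% of genes called), with 8 members at an unadjusted p under 0.05. DESeq2 called 0 members at either stage. In trained mice 30 of 34 members had a positive value for DTR+ over DTR- (median 0.31, against -0.0027 for all genes). Plin5 came closest, at 42.6, 53.6 and 52.1 CPM in DTR+ and 22.0, 42.3 and 20.3 CPM in DTR- controls (log2 0.87 ± 0.28, adjusted p = 0.246). Slc27a1 was at 104, 127 and 102 against 76.5, 74.2 and 67.7 CPM (log2 0.66 ± 0.23, adjusted p = 0.335). Sedentary toxin-treated mice of the 2 experiments can be set side by side for the genes that parted most in the acute one. In the training experiment Cpt1b was at 11.2 ± 3.39 CPM in sedentary DTR+ and 12.6 ± 1.10 CPM in sedentary DTR- libraries (SD, n = 3 each), and Acads at 52.5 ± 1.71 and 50.5 ± 3.77 CPM. Those libraries overlapped between genotypes, and the difference between the experiments was not tested.

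With interferon gamma neutralised in trained DTR+ mice, 1 member was lower: Plin4, a droplet coat of muscle and fat. Its CPM was 183, 131 and 139 with IgG and 103, 77.8 and 90.8 with the antibody, with no overlap (log2 -0.74 ± 0.14, adjusted p = 0.0178; 1.35% of 11742 genes called). Plin5 was at 70.8, 42.7 and 71.0 against 50.7, 31.6 and 40.0 CPM (log2 -0.60 ± 0.20, adjusted p = 0.232). Ucp3 varied most within a group, at 111, 25.9 and 17.7 CPM with IgG and 10.4, 10.8 and 29.0 CPM with the antibody (log2 -1.64 ± 0.55, adjusted p = 0.242). The Plin4 call was lost without IgG replicate 1 (-0.57, adjusted p = 0.0634), antibody replicate 2 (-0.63, adjusted p = 0.14) or antibody replicate 3 (-0.75, adjusted p = 0.0826). Adipocyte marker sums overlapped (375 to 444 with IgG, 374 to 532 CPM with antibody), while slow fibre marker sums were 1102 to 1235 and 445 to 936 CPM, with 2 of 7 called lower; the part of slow fibres was not tested. The genes called higher after training in DTR+ mice were not called with the antibody: Cd36 was at 506, 457 and 530 CPM with IgG and 452, 434 and 435 CPM with it.

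In aged mice 0 members and 0% of genes were called with the antibody, with 0 members and 64 genes at an unadjusted p under 0.05 and 0 members by DESeq2. The 4 libraries differed too widely to compare. Fabp3 was at 378 and 614 CPM with IgG and 843 and 78.1 CPM with the antibody. Cpt1b was at 13.6 and 6.85 against 1.56 and 7.39 CPM (log2 -1.19 ± 1.06), and Hadhb at 207 and 263 against 147 and 58.7 CPM (log2 -0.95 ± 1.11), both with an adjusted p of 1. Length trends of these libraries ran from -0.502 to 0.689, the full range of the series.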

How the data were processed

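RNA-seq of mouse muscle was analysed from the deposited table of raw counts per gene. Per the submitters' processing notes the authors used STAR 2.7.3a, featureCounts and the mm10 build; for the strand setting and annotation, none is stated in these sources. Per the labels' protocols 2 ng of RNA per sample entered the low-input library protocol. The members and lists were chosen with earlier results of these data known.

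Each experiment was fitted on all its groups with edgeR 4.0.16 in R 4.3.3: filterByExpr (minimum count 10, minimum total 15), TMM, the quasi-likelihood test and Benjamini-Hochberg adjustment over all genes tested. A gene was called at an adjusted p under 0.05; values after ± are SE for log2 fold changes and SD for levels. CPM is the count over the library total, without TMM. Library depth ranged from 3359680 to 14445300 counts (median 7582740); 3 counts, the floor, equal 0.208 to 0.893 CPM. Members with called or lowest-p values were named, at most 8 in each direction per comparison; folds of further members described with their step were added after their values were seen.

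Exon lengths and GC content came from GENCODE vM21 (53009 of 55011 symbols matched). Length and GC trends were fitted per library with splines of 4 degrees of freedom on log2 CPM with a prior count of 2. They were removed as offsets, and the counts were tested with the same quasi-likelihood test of edgeR. Promoters came from RefSeq (GRCm38.p6). Alternatives were DESeq2 1.42.0, RLE factors, no filter, a replicate block, each library left out, only the groups compared, and, chosen after seeing the data, library totals without TMM and both divergent sedentary training libraries left out. Scripts were tested on simulated data. Wild-type quadriceps and tibialis anterior with the same number come from the same animal per the labels; their deviations correlated at -0.03 to 0.05 over 12 pairs, and the block changed no count of members called. Elsewhere the labels name no shared animal. Within-group pairs differed beyond sampling noise (chi-square per degree of freedom 4.04 to 575 over 56 pairs), so no library was counted as a copy. Labels do not say that samples of a group came from separate animals except in wild type, so p-values elsewhere measure the spread between samples.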

Additional observations from a re-analysis of the deposited data

Results flagged for a closer look

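Between DTR+ and DTR- mice 14 members differed in the change from rest to day 1 after a bout, by edgeR's test of the interaction. Of these, 9 had a higher change in DTR+: Cpt1b by 3.55, Acads by 2.14, Pnpla2 by 1.57, Hadha by 1.39, Plin4 by 1.33, Slc27a1 by 1.21, Crat by 1.16, Ucp3 by 1.00 and Acadvl by 0.96 on the log2 scale. Another 5 had a lower change in DTR+, with Acot13 at -1.18, Etfa at -1.07, Etfb at -0.80, Eci1 at -0.70 and Acadm at -0.59. As single libraries were left out, the Acadm call was lost under 10 of 11 leave-outs, Eci1 under 7 and Slc27a1 under 6. The other members of the 14 kept theirs. Some of these fits left sedentary DTR+ with 1 library, assumed to vary like the other groups. At rest all 14 differed between the genotypes, and at day 1 none was called. Sedentary DTR+ libraries had a mitochondrial share of 21.4% to 23.5% of counts, against at least 7.89% in sedentary DTR- and 5.44% to 6.56% in day 1 libraries. The part of these library properties in the 14 results was not tested. With the length and GC trend removed 8 of the 34 members were called.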

How the results depend on the processing

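Over the 26 counts of members called, 337 of 376 alternative values stayed within 1.5 times the reported count and 39 moved; of 2021 alternative values for 145 folds of called or lowest-p members, 1752 kept their side of the threshold, 252 lost it, 14 gained it and 3 changed direction: Plin4 for genotype at day 7 with the length and GC trend removed (0.08), and Hadhb (0.06) and Etfdh (0.13) at day 1 in DTR+ mice with library totals. DESeq2 called 2 members in quadriceps at day 2, 1 at day 7, 1 in tibialis anterior at day 1 and 1 in acute DTR- mice at day 7. Without the filter the counts were 2 and 2 in quadriceps at days 2 and 7, 1, 1 and 1 in tibialis anterior at days 1, 2 and 7, and 3 for the antibody in trained mice. With the length and GC trend removed they were 1 for quadriceps against tibialis anterior, 13 and 14 for genotype at rest and day 7, and 8 for the genotype difference at day 1. With only the compared groups they were 1 in quadriceps at day 7, 12 for genotype at day 7, 1 for genotype in trained mice and 0 for training in DTR+. Library totals gave 10 for day 1 in DTR- mice, and leaving out both divergent sedentary libraries gave 1 for training in DTR+. The cause was not tested.

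Leaving out each library in turn gave 0 to 1 for quadriceps at day 1, 0 to 2 for quadriceps against tibialis anterior, 13 to 20 for genotype at rest, 7 to 16 for day 1 in DTR- mice (7 without DTR- sedentary 1, day 1 replicate 2 or day 1 replicate 3, and 11 without sedentary 2), 0 to 1 for day 7 in DTR+ mice (1 without DTR+ day 7 replicate 2), 0 to 18 for training in DTR+ and 0 to 2 for the antibody (2 without IgG replicate 3).

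The replicate block moved no count of members called beyond 1.5 times. Under it 9 folds lost their call: Plin5 and Hadh for genotype at rest (adjusted p = 0.0556 and 0.0586), Plin5 and Lpl for genotype at day 7 (-1.09 and -0.51, adjusted p = 0.0779 and 0.0518), Etfdh at day 1 in DTR+ mice (adjusted p = 0.0542), Crat and Acadl at day 1 in DTR- mice (adjusted p = 0.054 and 0.0689), Acadm for the genotype difference (adjusted p = 0.0586) and Hadha for training in DTR+ (adjusted p = 0.0561). Outside wild type the numbers are shared only as numbers: correlations of deviations were -0.098 to 0.042 over 31 pairs in the acute, -0.156 to 0.0999 over 18 in the training, -0.047 to 0.013 over 3 in the antibody experiment and -0.652 in the aged. In the acute and training experiments 3 of 15 and 3 of 12 libraries correlated best with their own number. With 2 sedentary DTR+ libraries, of 3 and 13 counts of Cpt1b, the size of its fold is uncertain.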
